A study of Taeniopygia guttata with 8 samples.

Results

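Chromosome 11 of the zebra finch carried 737 of the 35958 genomic regions in which H3K27ac reads were counted. The regions were taken by position alone: every region that the deposited count table places on chromosome 11, without the 2 regions that it places on 11_random. H3K27ac, an acetyl mark on lysine 27 of histone H3, was mapped by ChIP-seq, the sequencing of immunoprecipitated chromatin, in adult males kept in sound-attenuated chambers. Tissue came from RA and from Area X, of birds that had been silent or are labelled as having sung for 2 hours. Per the labels, 18 birds per behaviour were used, and dissected nuclei were pooled from 6 birds. No allele, transgene or drug is named in the labels. The table holds 3 silent and 4 singing libraries of each nucleus, read from column names in which minus was taken as silent and plus as singing, while the labels state 3 pools per behaviour.

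H3K27ac is placed by the acetyltransferases p300 and CBP and marks active promoters and enhancers; long stretches of closely spaced acetylated regions often lie at genes that are highly active in a cell type. RA, the robust nucleus of the arcopallium, is a pallial motor nucleus whose projection neurons drive the vocal and respiratory motor neurons of the brainstem. Area X is a striatal song nucleus, rich in GABAergic spiny neurons, that is needed for song learning. The 2 nuclei therefore hold different neuron types, and bulk tissue cannot tell a change in cell number from a change in signal per cell. Since no source used here gives the genome build, no gene is named, no sequence is shown, and the labelled tissue was not checked against marker genes.

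Between 0.203 M and 10.6 M reads (M, 1e6 reads) fell in regions in each library, and RA singing library 4 was the shallowest. In that library 112 of the 737 regions had no read and the median region had 3 reads; in the other libraries the median was between 20 and 176 reads. RA silent library 2 and RA singing library 4 stood apart from the other RA libraries when regions beyond every Area X library were counted. On chromosome 11, 297 regions were called higher in RA (40.3%, where the whole table had 25.3%; edgeR adjusted p under 0.05, RA against Area X). Among them, RA silent library 2 was above every Area X library in 145 and RA singing library 4 in 118, against 218 to 284 for each other RA library. By the Area X median RA silent library 2 did not stand apart: it was above it in 273, RA singing library 2 in 263 and RA singing library 4 in 204. Of 95 regions called higher in Area X (12.9%, where the whole table had 28.5%), each other RA library was below every Area X library in 63 to 95. RA silent library 2 was so in 29 and RA singing library 4 in 47. The chromosome's share, the counts of calls and the folds of the domains and regions that these libraries move most are also given without them, a choice made after the values were seen. These libraries were singled out for lying nearer to Area X in called regions. Larger differences between the nuclei without them are therefore built in and add no support.

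The chromosome was picked because its share of reads differed between the nuclei, so this share and every RA against Area X value that follows is a description, with no test. In the RA silent libraries 1, 2 and 3, chromosome 11 took 3.16%, 2.60% and 3.14% of the reads in regions. In the RA singing libraries 1 to 4 it took 3.12%, 2.79%, 2.93% and 2.45%. In the Area X silent libraries it took 2.53%, 2.24% and 2.24%, and in the Area X singing libraries 2.43%, 2.30%, 2.03% and 2.09%. Of the 7 RA libraries, 6 lay above every Area X library, and RA singing library 4 lay within the Area X range. This gave a mean of 2.88% ± 0.284 (SD, n = 7) for RA and of 2.27% ± 0.174 (SD, n = 7) for Area X, 0.618 percentage points apart and with a ratio of 1.27. Without RA silent library 2 and RA singing library 4, the RA mean was 3.03% ± 0.161 (SD, n = 5). Chromosomes 10 and 12, which span similar lengths, differed by less. The share of chromosome 10 was 2.90% ± 0.0718 for RA and 2.96% ± 0.035 for Area X, and that of chromosome 12 was 3.47% ± 0.135 and 3.52% ± 0.13.

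The share alone does not show that chromosome 11 as a whole carried more signal in RA, since the answer depends on the scaling. Which scaling is closer to the amount of the mark was not tested. TMM scaling (trimmed mean of M values) sets libraries to a common level at most regions, and values are then in CPM, counts scaled to 1e6 reads per library. On that scale the summed signal of chromosome 11 came to 25779 ± 2554 CPM for RA and 25355 ± 1823 CPM for Area X (SD, n = 7 each), with a ratio of 1.02, or 1.06 without RA silent library 2 and RA singing library 4. Summed over all regions of the table, the ratio of RA to Area X was 0.794. On the TMM scale, chromosome 11 thus stood level between the nuclei while the whole table was lower in RA.

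**Figure D1:**
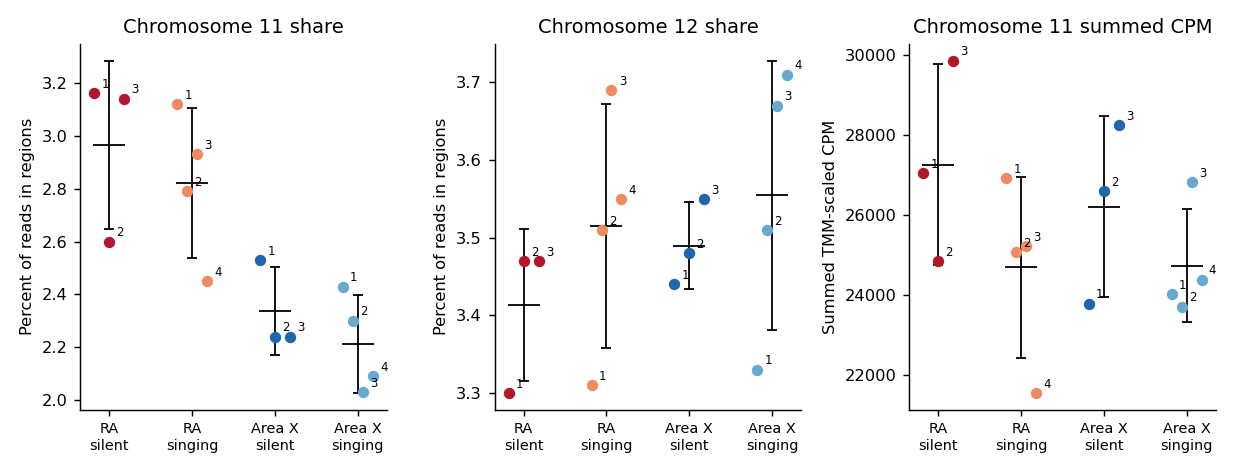
Percent of reads in regions on chromosome 11 (left) and chromosome 12 (middle), and the summed TMM-scaled CPM of chromosome 11 (right), for each library, numbered, in the 4 groups. Bars give the group mean and SD, and the axes do not start at 0. In the left panel 6 of 7 RA libraries lie above the Area X libraries, whereas the groups overlap in the other panels.

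Chromosome 11 was poorer in regions than its neighbours in size. Its regions ran from position 103 to 21071457, a span of 21.1 Mb, at 35 regions per Mb, compared with 51.4 on chromosome 10 and 53.7 on chromosome 12. The median gap between neighbours was 8690 bp, against 5685 and 6007 bp. The regions themselves were slightly wider, with a median of 815 bp (quartiles 456 and 1669 bp) against 764 bp in the whole table. Regions over 4000 bp made up 7.73% of the chromosome's regions and 4.31% of all regions. The median of the regions' mean signal was 15.3 CPM on chromosome 11 and 13.8 CPM in the table.

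The acetylated regions were not spread evenly. Between 4 and 7 Mb lay 255 regions and between 10 and 13 Mb another 187, limits that were chosen after the values were seen. Together these stretches held 60% of the regions, 78.8% of the chromosome's reads in RA and 81.8% in Area X. Their regions had a median width of 1040 bp, compared with 599 bp elsewhere on the chromosome. The strongest bin of 1 Mb in RA was that from 11 Mb, with 0.515% ± 0.0726 of all reads in regions for RA, compared with 0.360% ± 0.0488 for Area X (SD, n = 7 each). In Area X the strongest was the bin from 5 Mb, with 0.425% ± 0.0172, against 0.497% ± 0.0308 in RA. These bins are the summits of the same 2 peaks in both nuclei, and the order of the summits differed in the means.

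Most bins leaned toward RA in read share, as the chromosome did. Of 22 bins, 19 had a higher mean share in RA, and in 6 of these every RA library was above every Area X library; in no bin was every Area X library above every RA library. The bins from 7, 8 and 16 Mb had the higher mean in Area X. Read shares leaned toward RA beyond this chromosome too. The mean share was higher in RA in 79.9% of the chromosome 11 regions and in 62.0% of all regions. No count of bins is given for other chromosomes. How far 19 or 6 of 22 bins exceeds the wider lean can therefore not be told. The region-rich stretches had a ratio of RA to Area X of 1.23 and gave 67.9% of the net difference. The remaining 295 regions had a ratio of 1.48 and gave 32.1% of it from 21.2% of the RA reads. The stretch from the chromosome start to 4 Mb, with 68 regions, had a ratio of 2.01 and gave 16.5% of the net difference, and 44 of its regions were called higher in RA (64.7%) against 2 higher in Area X, where the whole table had 25.3% and 28.5% in edgeR. The highest ratios came from bins outside the region-rich stretches, with fewer reads than any bin within them. The bin from 15 Mb took 0.0292% ± 0.0104 in RA and 0.0100% ± 0.00359 in Area X, a ratio of 2.91. The bin from 0 Mb took 0.0933% ± 0.0263 and 0.0338% ± 0.00778, a ratio of 2.76, and all 7 RA libraries were above the Area X libraries there. On the TMM scale, 14 of the 22 bins kept a ratio above 1, with 2.39 for the bin from 15 Mb and 2.24 for that from 0 Mb, while 5 bins turned below 1. These were the bins from 1, 5, 6, 10 and 13 Mb, at 0.958, 0.930, 0.876, 0.890 and 0.963, and that from 13 Mb is one of the 6 in which the read shares of the nuclei did not overlap.

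**Figure D2:**
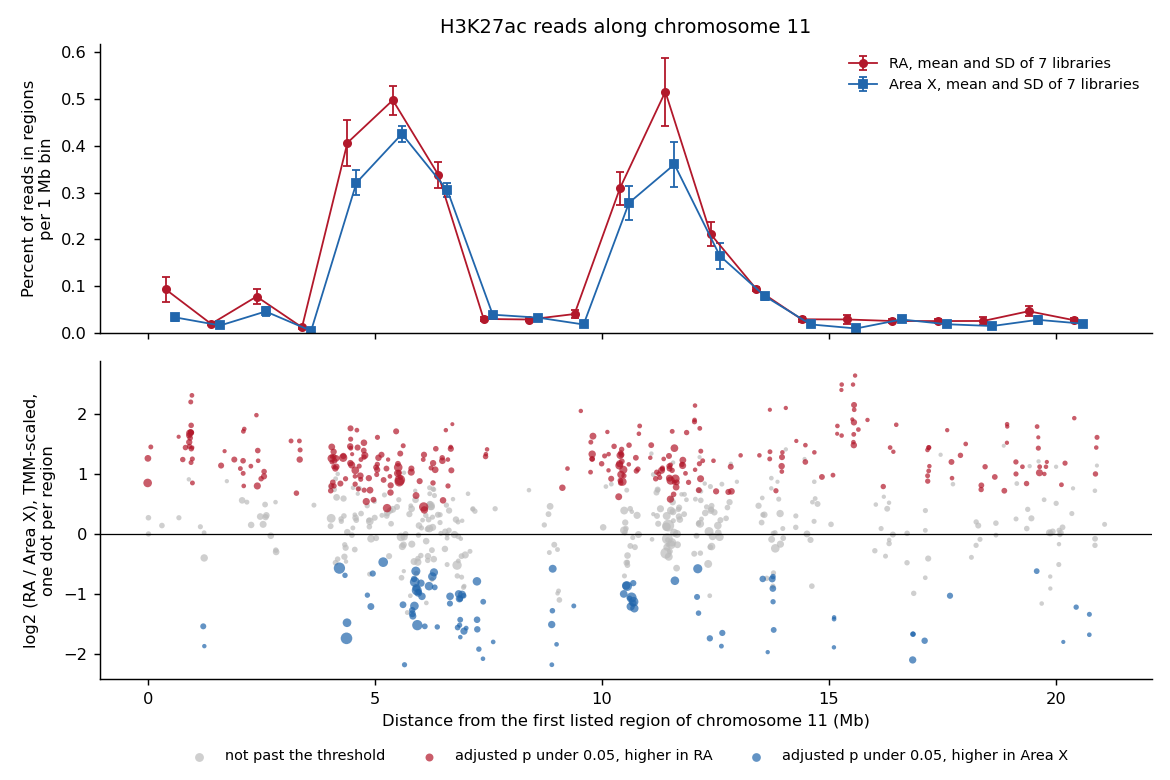
Top, percent of reads in regions per 1 Mb bin in RA and Area X (mean and SD of 7 libraries each), against distance in Mb from the first listed region; the last bin, with 1 region, is left out. Bottom, log2 ratio of RA to Area X of each region, TMM-scaled, with dot area growing with mean CPM. RA lies above Area X at the summits. Dots called higher in RA occur along most of the chromosome but not in the bin from 8 Mb. There 4 of 10 regions were called higher in Area X, against 12.9% of the chromosome's regions and 28.5% of the table.

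Regions were joined into domains where the gap to the next was at most 10000 bp, which gave 341 domains of 1 to 19 regions, 202 of them single regions. The reads themselves lay in many domains: 50% of the chromosome's reads were reached with 22 domains in RA and with 17 in Area X, or with 88 and 59 single regions. The mean read share was higher in RA in 281 domains (82.4%) and higher in Area X in 60. On chromosomes 10 and 12, joined in the same way, it was higher in RA in 65.5% of 414 and 66.4% of 435 domains. The 281 summed to 0.894 percentage points toward RA and the 60 to 0.276 toward Area X, which leaves the net 0.618. This imbalance is one of read shares. On TMM-scaled CPM, 245 domains were higher in RA and 96 in Area X, with sums of 5326 and 4902 CPM, so the 2 directions came close to balance. Of the sum toward RA, 50% was reached with 17 domains. The leading domain gave 9.02% of that sum, the leading 5 gave 29.5% and the leading 10 gave 40.6%. Regions ranked singly have a sum of their own, in which opposite regions of a domain do not cancel. Of that sum toward RA, 50% was reached with 71 regions, and no single region gave more than 3.19%. The sum toward RA was thus spread over many domains, with a few long ones ahead. The net is smaller, since domains higher in Area X cancel part of that sum. Against the net of 0.618 percentage points, the leading 10 domains gave 0.363 and the leading 20 gave 0.485. Without the leading 50 the net was -0.0374. The leading domains were ranked on this same difference, so leaving them out had to lower the net. These values therefore cannot tell whether few or many domains carried it. Without the leading 10 domains the shares were 1.99% ± 0.137 for RA and 1.74% ± 0.103 for Area X (SD, n = 7 each), and 5 of 7 RA libraries were above every Area X library. The number of domains depends on how regions are joined: with gaps of 5000 bp, 29 domains reached 50%, and with gaps of 50000 bp, 5 did.

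**Figure D3:**
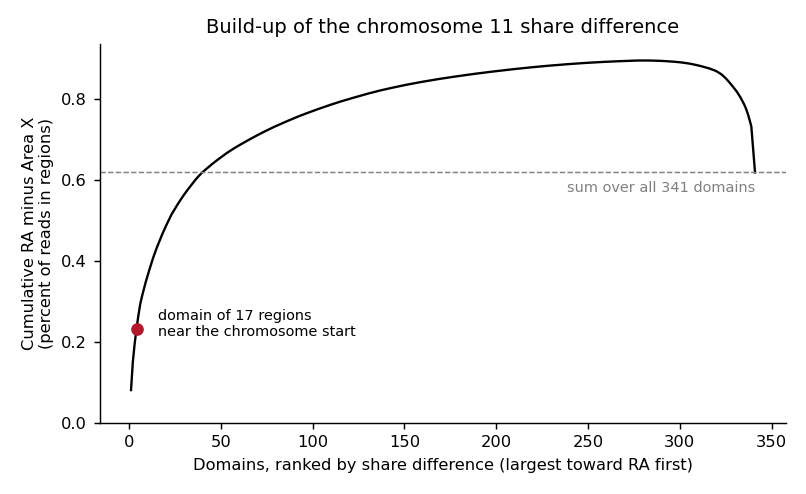
Cumulative difference in read share, RA minus Area X, in percentage points of reads in regions, over the 341 domains ranked from the largest difference toward RA to the largest toward Area X. The dot marks the domain at 0.91 to 0.99 Mb, ranked 4; the curve climbs past the net value of 0.618 (dashed) before the domains higher in Area X bring it down.

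The domain at chr11:908743-988165 held 17 regions over 79.4 kb. It had the highest ratio toward RA among the 10 domains named for their read share or share difference. Its summed signal was 437, 287 and 687 CPM in the RA silent libraries 1 to 3, and 460, 463, 602 and 235 CPM in the RA singing libraries 1 to 4. It was 202, 111 and 125 CPM in the Area X silent libraries and 162, 159, 176 and 154 CPM in the Area X singing libraries. Every RA library was above every Area X library, and RA singing library 4 and RA silent library 2 were the lowest of RA. The means were 453 ± 160 CPM in RA and 156 ± 30.4 CPM in Area X (SD, n = 7 each), with 2.91 times as much in RA, and all 17 regions had a fitted ratio above 1 toward RA. When RA silent library 2 and RA singing library 4 were left out, the domain's fold was 3.41, a rise that follows from their being the lowest of RA. Among the 16 regions that lie within 0.91 to 0.99 Mb, the fitted fold ran from 1.80 to 4.95 with a median of 3.07. Yet this domain gave only 5.92% of the chromosome's net share difference, because it held 1.76% of the chromosome's reads in RA and 0.625% in Area X. Without its 16 regions the chromosome's shares were 2.83% ± 0.27 and 2.25% ± 0.172, a difference of 0.581 percentage points.

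The largest contribution came from chr11:5504672-5592028, a domain of 11 regions over 87.4 kb. It had 1392, 1105 and 2037 CPM in the RA silent libraries and 1391, 1412, 1478 and 834 CPM in the RA singing libraries. In Area X it had 888, 773 and 917 CPM in silent and 771, 779, 734 and 832 CPM in singing libraries. RA singing library 4 fell within the Area X range, and the other 6 RA libraries lay above it. The means were 1378 ± 369 and 813 ± 68 CPM (SD, n = 7 each), a 1.69-fold difference, and the domain gave 13.1% of the net share difference. Without those libraries its fold was 1.90. At chr11:10371631-10442747, with 11 regions, the means were 659 ± 192 CPM in RA and 315 ± 96.2 CPM in Area X, 2.09-fold. All 11 regions were called higher in RA there, against 40.3% of the chromosome's regions and 25.3% of the table. The domain was named for this difference and neighbouring regions had like ratios, so these calls are not separate results. RA silent library 2, at 398 CPM, and RA singing library 4, at 413 CPM, lay inside the Area X range of 229 to 456 CPM. Without these libraries the fold was 2.41.

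The domain with the most reads, chr11:11408157-11532406, differed little between the nuclei on the TMM scale. It held 19 regions over 124 kb, with 10.2% of the chromosome's reads in RA and 9.89% in Area X. Its summed signal was 2636 ± 405 CPM in RA and 2516 ± 370 CPM in Area X (SD, n = 7 each), a ratio of 1.05, with overlapping libraries. It still ranked 2 in the share difference, with 11.3% of the net, since shares of reads set it against the whole table. The next domain along the chromosome, chr11:11542742-11624528, had 867 ± 143 and 728 ± 69.4 CPM, a ratio of 1.19. Of the 5 regions with the highest signal on the chromosome, 3 lay in the first of these domains and the others at 4.22 and 4.37 Mb. The widest, chr11:11456029-11472948, spanned 16920 bp, with 653 ± 140 CPM in RA and 593 ± 119 CPM in Area X. At chr11:11436512-11452215 the means were 415 ± 60.2 and 438 ± 97.3 CPM, and at chr11:11408157-11419103 they were 421 ± 61.6 and 524 ± 65.8 CPM. These 3 regions were not called in either direction (edgeR adjusted p = 0.473, 0.701 and 0.0904, in the order given). At chr11:4216969-4231206 the mean was 615 ± 95.6 CPM in Area X and 410 ± 42.9 CPM in RA, a 1.49-fold difference toward Area X with no overlap between the nuclei. With total-count scaling its log2 ratio of RA to Area X went from -0.57 to -0.24, so the size of this difference depends on the scaling.

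Among the domains higher in Area X, the largest contribution was that of chr11:5867311-5976159, with 18 regions over 109 kb. It had 1001, 1635 and 1120 CPM in the RA silent libraries and 1044, 1426, 1414 and 1660 CPM in the RA singing libraries. In Area X it had 1831, 2433 and 2637 CPM in silent and 1691, 2031, 3220 and 2541 CPM in singing libraries. The nuclei did not overlap, although RA silent library 2 and RA singing library 4 came close to the lowest Area X library. The means were 2341 ± 530 CPM in Area X and 1329 ± 275 CPM in RA (SD, n = 7 each), 1.76-fold, or 1.95-fold without those 2 RA libraries.

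A steeper domain toward Area X was chr11:4358844-4398126, with 6 regions. It had 288, 693 and 214 CPM in the RA silent libraries and 309, 561, 378 and 669 CPM in the RA singing libraries. In Area X it had 893, 1321 and 1387 CPM in silent and 957, 1025, 1446 and 1331 CPM in singing libraries. The highest of RA were singing libraries 2 and 4 and silent library 2, and all remained below Area X. The means were 1194 ± 228 CPM in Area X and 445 ± 194 CPM in RA, a 2.69-fold difference, or 3.41-fold without RA silent library 2 and RA singing library 4. This domain was also among the 5 with the largest mean read share. Most of its difference lay in 1 region, chr11:4374440-4385672, of 11233 bp, where Area X had 875 ± 216 CPM and RA 273 ± 174 CPM, with a fitted fold of 3.33 toward Area X (log2 ratio of RA to Area X -1.74, SE 0.36); without those libraries the log2 ratio was -2.47. That was the second highest mean signal of any region on the chromosome. The domain at 4.30 to 4.32 Mb, which ends 35.3 kb before it and was singled out after its values were seen, had 292 ± 80.9 CPM in RA and 140 ± 29.4 CPM in Area X, 2.09-fold toward RA.

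Of the 5 domains with the largest contribution toward Area X, 3 lay between 10.53 and 10.70 Mb. At chr11:10532175-10568213 the means were 638 ± 139 CPM in Area X and 391 ± 59.5 CPM in RA, 1.63-fold. At chr11:10651804-10662785 they were 432 ± 43.9 and 209 ± 51.8 CPM, 2.07-fold, and at chr11:10682779-10704070 they were 488 ± 99.5 and 234 ± 71.4 CPM, 2.08-fold. Every Area X library was above every RA library in the second of these, and 6 of 7 were in the first and the third. In the order named, 2 of 8, 1 of 2 and 3 of 4 regions were called higher in Area X. Higher in RA were 0 in each, where the table had 28.5% called higher in Area X and 25.3% in RA.

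**Figure D4:**
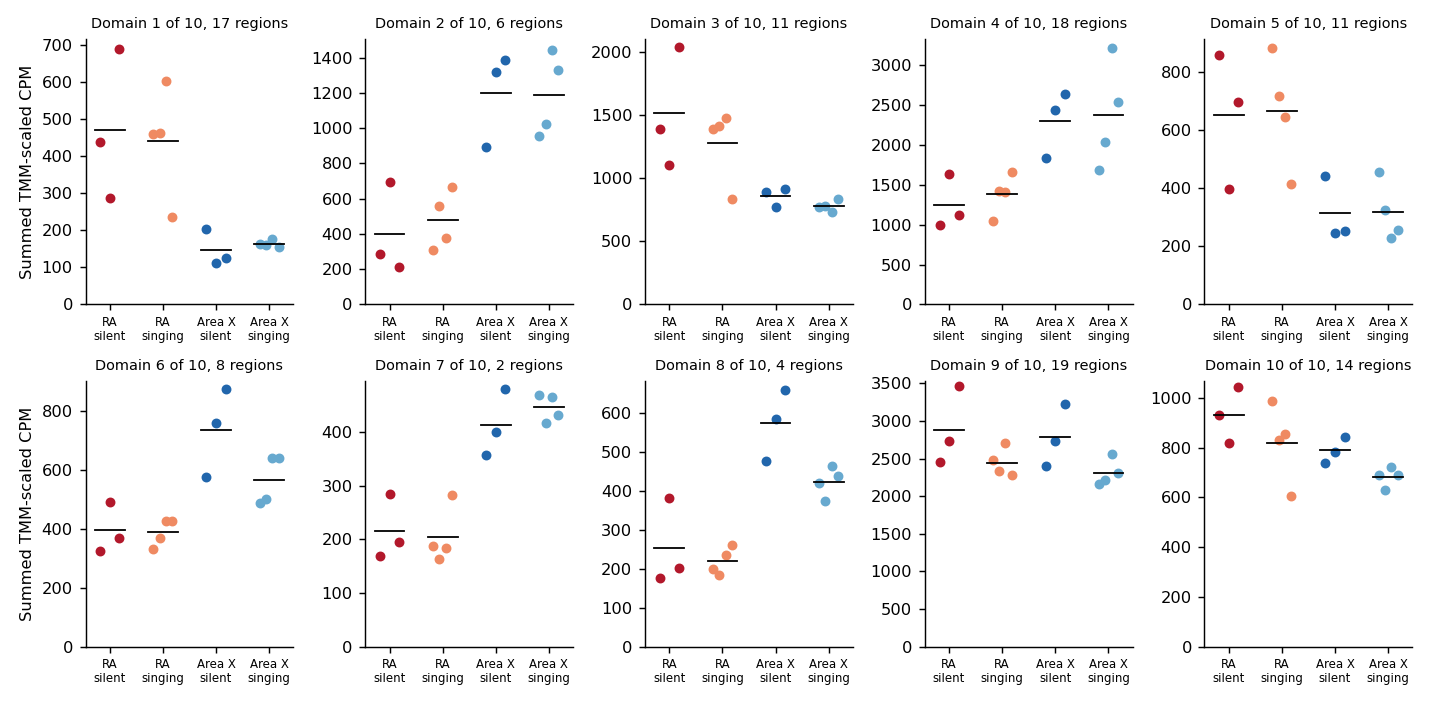
Summed TMM-scaled CPM of the 10 domains named for their read share or share difference, in order along the chromosome, for each library of the 4 groups. Lines are group means and each panel has its own axis from 0. Panels 1, 3 and 5 show RA above Area X in most libraries, panels 2, 4, 6, 7 and 8 the opposite, and panels 9 and 10 overlapping nuclei.

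Counted over regions, 297 of the 737 were called toward RA (higher there) and 95 toward Area X (edgeR quasi-likelihood test on the whole table, Benjamini-Hochberg adjusted p under 0.05). Over the 35954 tested regions of the table these shares were 25.3% and 28.5%; on chromosome 11 they were 40.3% and 12.9%. Since the chromosome was picked on this contrast, the counts only describe it. Regions called toward RA gave 110% of the net share difference and those called toward Area X gave -51.6%. Regions called in neither direction gave 41.6% of it. Scaling by total counts raised the median log2 ratio of RA to Area X over all regions from 0.04 to 0.35, and then 388 were called toward RA and 62 toward Area X, against 34.2% and 19.6% of the table. Without RA silent library 2 and RA singing library 4, 333 and 111 were called. The shares over the table in that refit are not given, so these counts cannot be set against it. The median log2 ratio of RA to Area X was 0.53 on chromosome 11, 0.06 on chromosome 10, 0.13 on chromosome 12 and 0.04 over the table. The libraries of the nuclei did not overlap, with RA above, in 44 regions (5.97%, against 3.67% of the table), and with Area X above in 17 (2.31%, against 4.38%).

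Within each behaviour the values were as follows; they divide the libraries on which the chromosome was picked and add no separate support. In silent birds the median log2 ratio of RA to Area X was 0.54 on chromosome 11 and 0.10 over the table, and in singing birds it was 0.46 and -0.03. The fitted ratio was above 1 toward RA in both behaviours in 481 regions, or 65.3% compared with 45.3% of the table, and toward Area X in both in 180 regions, or 24.4% compared with 42.8%.

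Width ordered the calls toward Area X more than those toward RA. Among the 212 chromosome 11 regions of up to 500 bp, 38.7% were called toward RA and 7.08% toward Area X, against 25.4% and 17.5% of all such regions in the table. Among the 85 regions of 2001 to 4000 bp, these shares were 52.9% and 17.6%, against 24.6% and 50.1%. Among the 57 regions over 4000 bp they were 38.6% each, against 20.4% and 62.2%. In each of 5 width classes, chromosome 11 thus had the higher share toward RA and the lower share toward Area X. Reads in every class also contributed: the net share difference came to 9.38% from regions up to 500 bp, 17.3% from 501 to 1000 bp, 31.7% from 1001 to 2000 bp, 25.6% from 2001 to 4000 bp and 16.1% from wider regions. All tested regions were also split into 5 classes of equal size by mean CPM. In the class with the highest signal, 29.3% of the 174 chromosome 11 regions were called toward RA and 24.7% toward Area X. The whole class had 14.6% and 47.8%. In the class with the lowest signal, 51.1% of 139 were called toward RA, against 31.9% of the whole class. The chromosome's median log2 ratio of RA to Area X, from the lowest class to the highest, was 1.14, 0.73, 0.41, 0.42 and 0.12. Over the table it was 0.67, 0.30, 0.06, -0.06 and -0.45. Ratios toward RA were thus mostly larger in weaker regions, on chromosome 11 and over the table. Chromosome 11 had the higher median in each class.

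**Figure D5:**
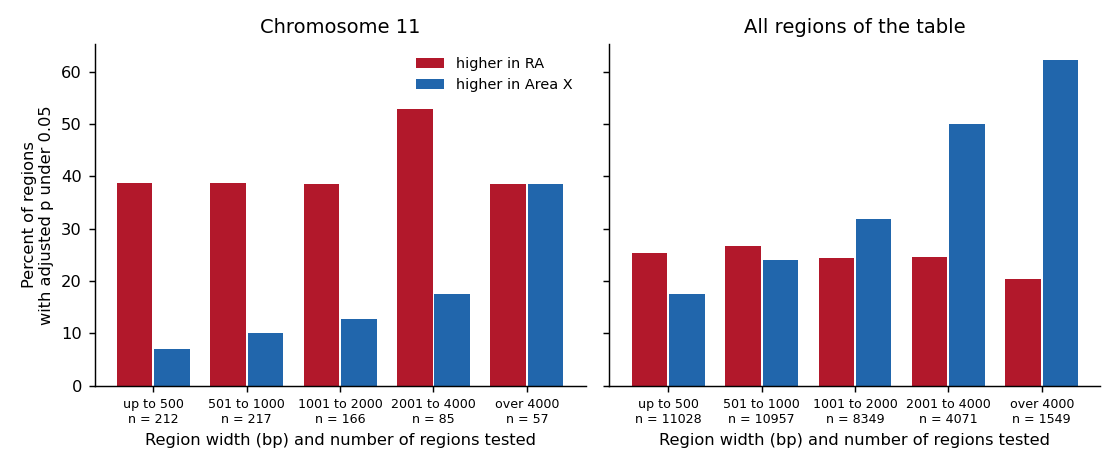
Percent of tested regions called higher in RA or in Area X (edgeR adjusted p under 0.05), by width class, on chromosome 11 (left) and over all regions of the table (right). The bars toward RA lie at 38.6% to 38.7% on chromosome 11, apart from 52.9% at 2001 to 4000 bp, and at 20.4% to 26.7% in the table, while the bars toward Area X climb with width to 38.6% and 62.2%.

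Neighbouring regions on the chromosome had like ratios. The log2 ratios of neighbours had a Pearson's r of 0.87 over 88 pairs up to 1000 bp apart, 0.60 over 308 pairs up to 10000 bp apart, 0.29 over 291 pairs up to 100000 bp apart and 0.14 over 49 pairs farther apart; these pairs share all libraries and are not replicates of each other. With 5 or more neighbours called the same way and no gap over 10000 bp taken as a run, there were 6 runs toward RA and 1 toward Area X. No count of runs for the rest of the table is given. More runs toward RA would follow from the call shares of 40.3% and 12.9%, so the count is no separate result. The longest run, chr11:913796-988165, held 16 regions, with 448 ± 160 CPM in RA and 153 ± 30.1 CPM in Area X. The steepest, chr11:15532331-15558424, held 7 regions with 177 ± 63.4 and 54.1 ± 20.2 CPM (SD, n = 7 each), 3.28-fold, or 3.83-fold without RA silent library 2 and RA singing library 4. The run toward Area X, chr11:6865919-6885897, held 5 regions with 183 ± 88.5 CPM in Area X and 88.7 ± 48.8 CPM in RA, 2.06-fold, or 2.66-fold without these libraries.

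The single regions with the largest fold toward RA, among those without overlap between nuclei and with at least the chromosome's median signal, came from few places. Of 5, 3 lay in the domain at 0.91 to 0.99 Mb. At chr11:952256-955258, RA had 58.4 ± 19.2 CPM and Area X 18.7 ± 4.92 CPM (SD, n = 7 each), 3.23-fold (log2 1.69, SE 0.24). At chr11:4467646-4469558, which had the highest fold of the 5, RA had 39.3 ± 13.6 CPM and Area X 12.3 ± 3.79 CPM, 3.40-fold (log2 1.76, SE 0.27). At chr11:5472163-5474157 the fold was 3.28. Toward Area X, the 5 regions lay in 4 places, at 4.37 and 4.39 Mb, 5.83 Mb, 12.38 Mb and 13.79 Mb. At chr11:12379440-12380062, Area X had 49.2 ± 11.2 CPM and RA 17.1 ± 11.6 CPM, 3.33-fold. RA silent library 2, at 27.2 CPM, and RA singing libraries 2 and 4, the latter at 34.8 CPM, were high for RA there, where the others had 5.72 to 9.17 CPM. Without RA silent library 2 and RA singing library 4, its log2 ratio of RA to Area X went from -1.74 to -2.33. In the 5 regions named toward RA the log2 ratios ran from 1.64 to 1.76, and from 1.74 to 1.96 without these libraries. In the 5 named toward Area X they ran from -1.74 to -1.33, and from -2.47 to -1.59 without them.

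Singing against silent was not used to pick the chromosome and was tested. No chromosome 11 region passed the threshold, whether in RA, in Area X, over both nuclei together or when the singing effects of the nuclei were set against each other (edgeR quasi-likelihood test, Benjamini-Hochberg over 35954 regions, adjusted p = 1 in each). Over the whole table the percentage called was 0 in each of the 4 comparisons. In the same order, an unadjusted p under 0.05 in edgeR was found for 8, 9, 13 and 5 chromosome 11 regions. These were 1.09%, 1.22%, 1.76% and 0.678%, against 1.96%, 1.07%, 2.60% and 0.587% of the table. For each comparison the table's share stayed under the 0.05 that would be found if behaviour made no difference. Regions share all libraries and are not independent, so these low shares do not settle whether the test was conservative. The absence of calls does not show an absence of change. The reason for the low shares was not tested. DESeq2 called 0 on the chromosome in each comparison. For single regions, the 95% interval of the log2 change, unadjusted, reached a median of 0.89 to either side in RA. For Area X this median was 0.86. A smaller change in a single region was mostly not detectable with these libraries. These reaches are no limit of detection, since calls were adjusted over 35954 regions and larger changes also failed the threshold. At chr11:18327355-18328519, a log2 change of -1.84 in RA was not called (edgeR unadjusted p = 0.00371). The median log2 change from silent to singing was -0.06 over the chromosome 11 regions in RA, against -0.04 in the table, and 0.02 in Area X, against 0.04.

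The chromosome's read share overlapped between behaviours. It was 2.97% ± 0.319 in silent and 2.82% ± 0.286 in singing RA libraries (SD, n = 3 and 4), and 2.34% ± 0.165 and 2.21% ± 0.183 in Area X. The region-rich stretch from 10 to 13 Mb took 1.08% and 1.00% in silent and singing RA libraries and 0.861% and 0.759% in Area X. That from 4 to 7 Mb took 1.25% and 1.23% in RA and 1.06% and 1.04% in Area X.

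None of the values that follow, from the regions with the smallest p for behaviour, passed the test. At chr11:18327355-18328519 the RA silent libraries had 16.3, 10.6 and 23.1 CPM and the RA singing libraries 7.23, 0.835, 2.55 and 13.0 CPM, so the groups overlapped. The log2 change from silent to singing was -1.84 (95% interval -3.01 to -0.68, edgeR unadjusted p = 0.00371, adjusted p = 1). At chr11:8900542-8901157, the third by p in RA, the RA silent libraries had 1.11, 1.10 and 1.00 CPM. The RA singing libraries had 2.82, 3.34, 3.97 and 4.35 CPM there, without overlap but from few reads. In Area X this region had 5.06, 6.70 and 5.72 CPM in silent and 2.84, 8.20, 23.9 and 17.7 CPM in singing libraries, with overlap. Its log2 change in the mean of both nuclei was 1.41 (interval 0.52 to 2.31, adjusted p = 1 in edgeR). The second by p in RA, chr11:6055161-6055533, had 4.10 ± 0.655 CPM in silent and 9.81 ± 4.66 CPM in singing libraries. In the order named, these regions had means of 9.93, 6.28 and 6.35 CPM over all libraries, below the chromosome's median of 15.3 CPM. In RA singing library 4, where the median region had 3 reads, such values rest on very few reads.

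In Area X the 3 regions with the smallest p were all lower in singing libraries and lay between 10.48 and 11.43 Mb. At chr11:11433262-11435567 the silent libraries had 69.5, 78.9 and 112 CPM and the singing libraries 50.0, 51.1, 56.3 and 57.7 CPM, a log2 change of -0.69 (95% interval -1.22 to -0.16, edgeR unadjusted p = 0.0134, adjusted p = 1). The groups did not overlap there. At chr11:10489347-10491430 the silent libraries had 97.6, 126 and 159 CPM and the singing libraries 75.5, 79.4, 93.3 and 75.3 CPM, also without overlap, a log2 change of -0.66 (interval -1.18 to -0.14). In RA this region had 125 ± 19.8 CPM in silent and 88.5 ± 16.2 CPM in singing libraries, and its log2 change in the mean of both nuclei was -0.57 (interval -0.94 to -0.20). At chr11:10482291-10484723 in Area X the means were 161 ± 36.5 and 94.9 ± 11.1 CPM. For the difference of the singing effect, Area X minus RA, chr11:6055161-6055533 had a log2 value of -1.51 (interval -2.84 to -0.19) and chr11:10544055-10545163 one of -1.14 (interval -2.24 to -0.03), both lower for Area X. At chr11:18327355-18328519 it was 1.63 (interval 0.07 to 3.19), the opposite sign. The adjusted p was 1 for each in edgeR.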

How the data were processed

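The authors deposited raw read counts per genomic region for 14 libraries, which were used as deposited. The tools named, per the submitters' processing notes, are HTSeq 0.6.1, MACS2 2.1, SAMtools 1.1 and bedtools, without their roles; no source used here gives the aligner, the genome build or the way in which regions were called. Whole-cell extracts were not analysed here. Starts in the table count from 0 and are printed counted from 1. Libraries numbered 1 to 4 were taken as separate pools. With the 3 pools per behaviour that the labels state, the 4 singing libraries of a nucleus cannot all be separate pools. Where libraries share a pool, SDs and p-values measure technical spread in part. Both nuclei may have been taken from the same birds, and the fits treat all libraries as independent.

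Regions were filtered with filterByExpr in edgeR 4.0.16 (R 4.3.3), which kept 35954, scaled by TMM and fitted with 1 mean per group and robust quasi-likelihood dispersions. Standard errors are the log2 fold over the square root of F. The test was checked on simulated counts. Domain sums add the CPM of their regions.

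The chromosome, the domains and the tests were chosen with earlier results of these data known. Named were the 5 domains with the largest mean share, the 5 with the largest share difference each way, the domain at 0.91 to 0.99 Mb, the 5 regions with the highest CPM, the 5 with the largest fold each way among called regions without overlap and at or above the median CPM, and for each behaviour comparison the 3 regions with the smallest p. Percentages of reads are of reads in the listed regions, not of sequencing depth. Alternatives were other scalings, DESeq2 1.42.0, no filter, a threshold of 0.01, library number as a block, other joining gaps and leaving out each library.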

Additional observations from a re-analysis of the deposited data

Results flagged for a closer look

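In the domain chr11:5504672-5592028, RA singing library 4 stood apart from its group. Its summed signal was 834 CPM, compared with 1391, 1412 and 1478 CPM in RA singing libraries 1, 2 and 3. The distance to the next library made up 0.864 of the span of the 4 values, past the 95% limit of Dixon's ratio. It was the single such value in 64 comparisons of 4 libraries, where about 3.2 would be found by chance. RA singing library 4 was also the shallowest library, with 0.203 M reads (M, 1e6 reads) in regions; the part of depth in this value was not tested.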

How the results depend on the processing

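The count of chromosome 11 regions called higher in RA was 297 and ran from 224 to 323 when each library was left out; that of regions called higher in Area X was 95 and ran from 64 to 109. With an adjusted p under 0.01 these were 182 and 54. No share called over the whole table is given for these counts or for those with library number as a block. They show only how the chromosome's own counts move. Total-count scaling gave 62 higher in Area X. No region was called between singing and silent in RA or in Area X under any alternative run, including each left-out library (0 to 0 in both). The RA minus Area X share was 0.618 percentage points (0.572 to 0.691 without each library) and 0.255 without the leading 10 domains. The number of domains reaching 50% of the sum toward RA was 17 (16 to 18 without each library), 29 with 5000 bp gaps and 5 with 50000 bp gaps. It was 16 on TMM-scaled CPM, an alternative chosen after seeing the data, as was leaving out RA silent library 2 and RA singing library 4 together. Of the named regions, chr11:11436512-11452215 changed direction, from a log2 ratio of RA to Area X of -0.08 to 0.25 with total-count scaling and to 0.02, 0.05 and 0.01 without Area X silent library 3, RA silent library 1 and RA singing library 1, within a range of -0.14 to 0.05 when each library was left out. With library number as a replicate block, 316 and 115 regions were called; the deviations of number 1 libraries correlated between 0.514 and 0.720 in all 6 pairs of groups, and those of the other numbers between -0.313 and 0.559, so the numbers were not taken to pair the libraries. The causes were not tested. Depth limits RA singing library 4 most.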

Other observations

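Within Area X, every silent library lay above every singing library in 2 of the domains described above, values singled out after they were seen and not tested as sums. The share of all domains that separate in this way is not given, and 3 silent against 4 singing libraries can separate by chance. The count is therefore no support for an effect of behaviour. At chr11:10682779-10704070 the summed signal was 477, 585 and 658 CPM in the silent and 419, 374, 465 and 437 CPM in the singing libraries. In RA the same domain had 177, 382 and 202 CPM in silent and 199, 184, 234 and 261 CPM in singing libraries, with overlap. At chr11:11542742-11624528 it was 740, 784 and 842 CPM in the Area X silent and 692, 629, 722 and 689 CPM in the Area X singing libraries. In RA that domain had 930, 819 and 1046 CPM in silent and 986, 831, 856 and 604 CPM in singing libraries, also with overlap. No region of either domain passed the test between behaviours.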
